A study of Mus musculus with 12 samples.

Results

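The reactive astrocyte genes measured here were Serpina3n, Gfap, Vim, Lcn2, Osmr, Cd44, Ptx3, Steap4, S1pr3 and Timp1, taken by symbol from the gene table. They were 10 of 22236 genes, and all 10 were among the 15853 genes that passed the filter on low counts. Hippocampal mRNA was sequenced from 12 male mice, 3 in each of 4 groups, to determine how lowering Hp1bp3, a heterochromatin protein 1 binding protein, alters gene expression on different genetic backgrounds. The strains were C57BL/6J (B6) and DBA/2J (D2). KD mice received AAV9-shRNA-Hp1bp3, a virus with a hairpin RNA against Hp1bp3, and Ctrl mice received AAV-scrmb-shRNA, the same type of virus with a scrambled hairpin. All mice were injected in both hippocampi as adults (3 to 5 months of age) and the tissue was collected at least 6 weeks later. The groups therefore share the injection and the viral vector, and no uninjected mice were analysed here. Injections were aimed at the dorsal hippocampus whereas RNA came from the whole hippocampus, and which cell types took up the virus was not measured here.

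Astrocytes are the glial cells that support synapses, take up glutamate and contact blood vessels. After injury, infection or inflammation they become reactive: intermediate filament proteins accumulate, and secreted proteins and cytokine receptors that are low in the resting brain are made. Signals such as the interleukin-6 family cytokines, which act through the receptor subunit gp130 and the transcription factor STAT3, are known to drive many of these genes. The genes fall into filament proteins (Gfap, Vim), secreted proteins (Serpina3n, Lcn2, Ptx3, Timp1), cell surface receptors (Osmr, Cd44, S1pr3) and a membrane metalloreductase (Steap4). Several of them are also made by other cells, among them endothelial cells, microglia and infiltrating leukocytes. In bulk tissue, more cells of a type and more RNA per cell cannot be told apart.

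The 3 genes that rose in B6 by the main test are shown with the sequence next to their start sites, together with Steap4, the only one of the 10 with a STAT-type motif there. The sequences are those of the B6 reference (RefSeq, GRCm38.p6), given 5′ to 3′ on the strand of the gene and cut where an annotated exon begins. Capitals mark matches to TTCNNNGAA, the letters bound by STAT factors, or to TTGCNNAA, a form of the C/EBP motif.

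Serpina3n, chr12:104406458-104406707, plus strand: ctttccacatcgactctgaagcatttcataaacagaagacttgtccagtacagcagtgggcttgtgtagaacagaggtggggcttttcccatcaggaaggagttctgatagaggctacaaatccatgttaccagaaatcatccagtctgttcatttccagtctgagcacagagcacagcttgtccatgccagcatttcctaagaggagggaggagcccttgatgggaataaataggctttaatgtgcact
Ptx3, chr3:66219637-66219886, plus strand: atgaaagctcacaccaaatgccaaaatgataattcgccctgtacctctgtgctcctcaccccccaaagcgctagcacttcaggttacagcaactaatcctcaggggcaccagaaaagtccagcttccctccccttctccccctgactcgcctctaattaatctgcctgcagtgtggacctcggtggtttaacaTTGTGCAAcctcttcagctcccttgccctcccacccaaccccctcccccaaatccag
S1pr3, chr13:51408368-51408617, plus strand: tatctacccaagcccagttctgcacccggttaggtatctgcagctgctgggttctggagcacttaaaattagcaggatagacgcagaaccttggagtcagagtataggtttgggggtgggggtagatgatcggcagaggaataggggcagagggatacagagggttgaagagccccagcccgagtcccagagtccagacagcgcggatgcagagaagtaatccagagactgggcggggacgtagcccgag
Steap4, chr5:7960347-7960456, plus strand: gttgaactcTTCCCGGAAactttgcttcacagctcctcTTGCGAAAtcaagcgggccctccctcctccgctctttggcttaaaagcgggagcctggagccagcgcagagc

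All 10 genes matched a RefSeq start. In the 250 bases upstream, on either strand, TTCNNNGAA was found in 1 of the 10 genes and in 7.02% of 32851 windows of the same length. TTGCNNAA was found in 3 of the 10 (Lcn2, Ptx3 and Steap4) and in 9.56% of windows. Annotated exons were not removed for these counts. They covered all 250 bases for Vim and Osmr, 197 for Lcn2 and 98 for Steap4. The Lcn2 match did not lie within its exon-free bases. The AP-1 motif TGANTCA was found in none of the 10 and in 6.75% of windows, and the interferon response element in none of the 10 and in 2.98%. These are matches of letters in one short window of one strain and describe no binding.

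The library labels were first checked with the target. Normalized counts of Hp1bp3 were 5539, 5429 and 7633 in B6 KD, all below the lowest B6 Ctrl library at 8826. For D2 the Ctrl libraries held 6504 to 7002 and KD 1 and KD 2 held 5337 and 4878, but 6941 was found in the library labelled D2 KD 3. The target thus goes against the label of that library. The KD change in D2 is given with and without it for each gene except Gfap and Lcn2. In the other comparisons that use this library, values without it are given for some genes only. By edgeR the log2 fold change of Hp1bp3 was -0.54 ± 0.15 in B6 (adjusted p = 0.0760) and -0.25 ± 0.15 in D2 (unadjusted p = 0.131). The target was thus called in neither strain. B6 KD 3, the B6 KD library with the most Hp1bp3, lay above every D2 Ctrl library. It also held the highest B6 KD value of 8 of the 10 genes. The part of the smaller change of the target in the D2 results was not tested. Libraries held between 18.2 M and 39.4 M expected counts (median 32.4 M). Values per library are the authors' normalized counts, which are not per length, so they compare libraries and not genes.

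**Figure D1:**
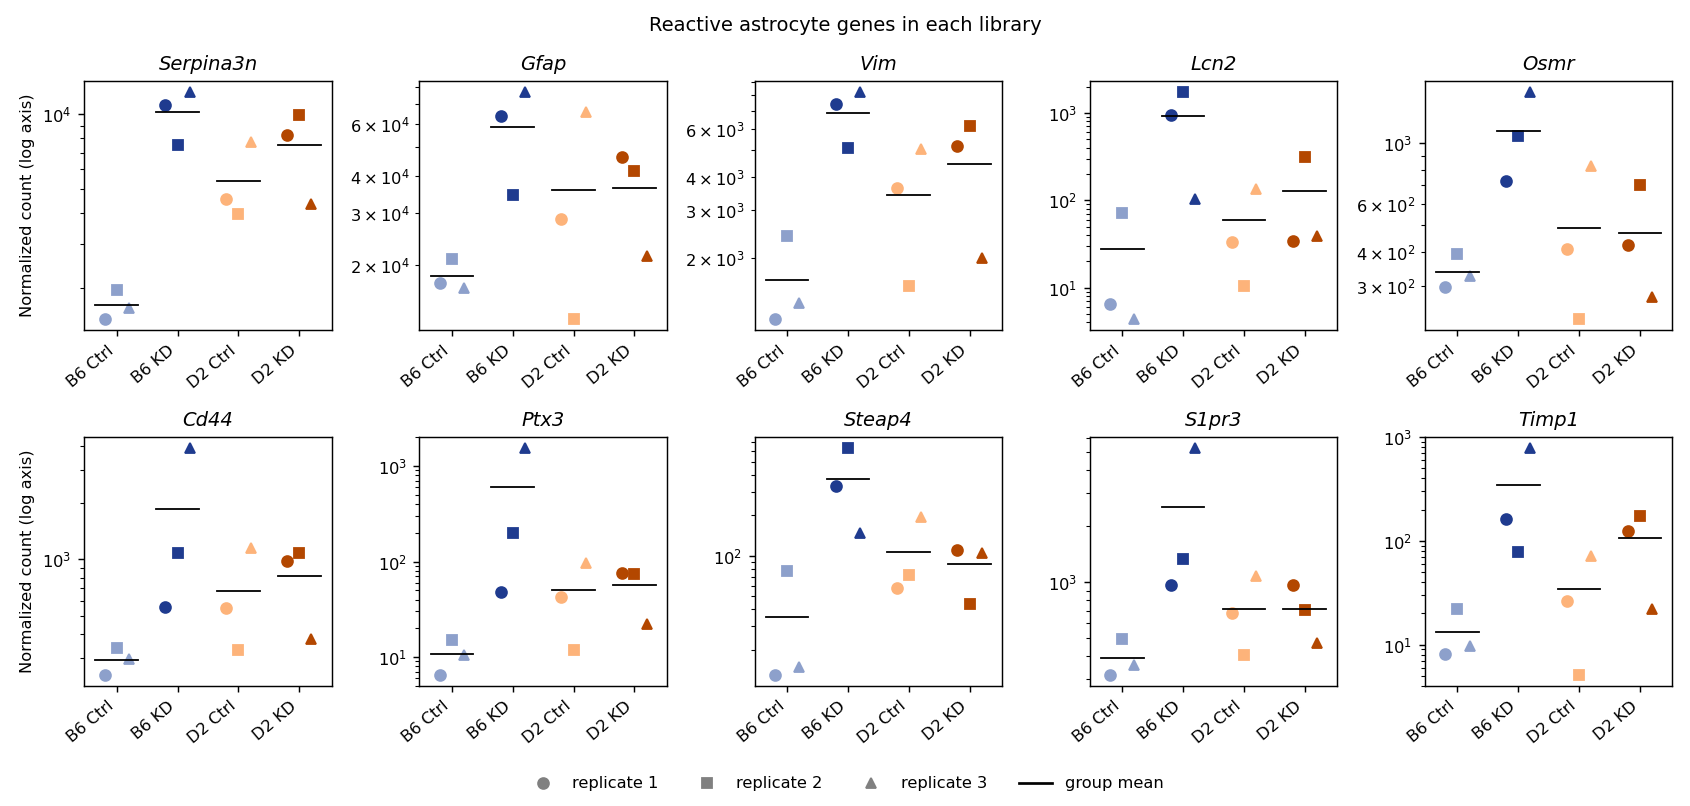
Normalized counts (log axes) of the 10 reactive astrocyte genes in the 12 libraries, by strain and treatment. Symbols mark replicates, which are not paired between groups, and lines are group means. For all 10 genes the 3 B6 KD points lie above the 3 B6 Ctrl points, whereas D2 KD and D2 Ctrl points overlap.

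In B6 mice, all 10 genes were higher in each KD library than in any Ctrl library, and Serpina3n, Ptx3 and S1pr3 rose by edgeR's quasi-likelihood test with Benjamini-Hochberg adjustment. Of all genes tested, 12.6% were likewise higher in every B6 KD library, and 2.64% were called in this comparison, 1.76% as higher. The log2 fold change of the 10 genes had a median of 2.71, and 50.4% of all genes tested had a change above 0. The other 7 genes had adjusted p-values of 0.0508 to 0.0981, and all 10 had an unadjusted p under 0.05. By DESeq2 all 10 were called, where 10.6% of genes were, 5.77% as higher.

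Among the filament genes, Gfap (GRCm38 chromosome 11, 102887336 to 102900912, minus strand) encodes glial fibrillary acidic protein, the classical astrocyte marker. Normalized counts of Gfap were 17365, 20849.6 and 16723 in B6 Ctrl and 63914, 34357 and 76728 in B6 KD. The groups did not overlap, and the B6 KD mean was 3.19 times the B6 Ctrl mean. On the log2 scale the change was 1.70 ± 0.52 (SE, n = 3 against 3), with an edgeR adjusted p of 0.0981. Vim (chromosome 2, 13573927 to 13582826, plus strand) encodes vimentin, a filament protein that astrocytes, endothelial cells and other cells make. Its counts were 1182, 2413 and 1355 in B6 Ctrl and 7410.3, 5105 and 8217 in B6 KD. Both groups were tight relative to the gap between them except for B6 Ctrl 2, which held the highest B6 Ctrl value of each gene. The log2 fold change of Vim was 2.09 ± 0.50 (edgeR adjusted p = 0.0514).

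Serpina3n (chromosome 12, 104406729 to 104414329, plus strand) encodes a secreted serine protease inhibitor that reactive astrocytes make in quantity. In B6 its normalized counts were 1493, 1963 and 1662 in Ctrl and 10881, 7544 and 12255 in KD, a ratio of means of 5.99. The libraries of each group lay close together, with the highest over the lowest at 1.31 in B6 Ctrl and 1.62 in B6 KD. The fitted log2 change was 2.61 ± 0.35 (edgeR adjusted p = 0.0326), the smallest p-value among the 10 genes. Leaving out 1 library at a time gave changes of 2.45 to 2.77, and the adjusted p passed 0.05 when B6 Ctrl 1, B6 Ctrl 3, B6 KD 1, B6 KD 2 or D2 Ctrl 1 was left out, the highest being 0.176 without B6 Ctrl 1. In those 5 fits none of the 15853 genes was called. Serpina3n is 1 of a cluster of near-identical genes on the chromosome, so reads may have been split among the copies.

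Ptx3 (chromosome 3, 66219910 to 66225805, plus strand) encodes pentraxin 3, a secreted pattern recognition protein. It was nearly silent in B6 Ctrl, at normalized counts of 6.56, 14.9 and 10.5, which are 8, 13 and 12 expected counts. In B6 KD it was at 48.3, 200.3 and 1546, so that the libraries of the group differed from each other by a factor of 32.01. Its fitted change was 5.87 ± 1.29 on the log2 scale (edgeR adjusted p = 0.0449). Without B6 KD 3 the change of Ptx3 was 3.56 and was not called (edgeR adjusted p = 0.0544), and the call was kept in 3 of 12 fits that left out 1 library, those without D2 Ctrl 3, D2 KD 2 or the library labelled D2 KD 3.

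Timp1 and Lcn2 also had few counts in B6 Ctrl. Timp1 (chromosome X, 20870166 to 20874735, plus strand) encodes a secreted inhibitor of matrix metalloproteinases. Its normalized counts were 8.20, 21.8 and 9.59 in B6 Ctrl and 162, 78.5 and 789 in B6 KD, and its log2 fold change was 4.77 ± 1.14 (edgeR adjusted p = 0.0521). Lcn2 (chromosome 2, 32384633 to 32388252, minus strand) encodes lipocalin 2, which binds bacterial siderophores and withholds iron. Its counts were 6.56, 71.3 and 4.36 in B6 Ctrl and 937, 1719 and 103 in B6 KD. The lowest B6 KD library was thus only slightly above the highest B6 Ctrl library, and the log2 fold change was 5.16 ± 1.46 (edgeR adjusted p = 0.0784). B6 KD 3, which was the highest library for Ptx3 and Timp1, was the lowest for Lcn2.

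Of the receptors, S1pr3 (chromosome 13, 51408639 to 51422797, plus strand) encodes a receptor for sphingosine 1-phosphate. Counts of S1pr3 were 318, 497 and 360.1 in B6 Ctrl and 965, 1336 and 5274 in B6 KD. This was a change of 2.72 ± 0.62 on the log2 scale (edgeR adjusted p = 0.0473). Without B6 KD 3 it was 1.57 and was not called (edgeR adjusted p = 0.0577), and the call of S1pr3 was kept in 2 of 12 fits that left out 1 library, those without D2 Ctrl 3 or the library labelled D2 KD 3.

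Cd44 (chromosome 2, 102811141 to 102901665, minus strand) encodes the main receptor for hyaluronan. It showed the same spread, with 244, 338 and 295 normalized counts in B6 Ctrl and 559, 1079 and 3916 in B6 KD, and a change of 2.70 ± 0.72 on the log2 scale (edgeR adjusted p = 0.0670). Without B6 KD 3 the change of Cd44 was 1.50. Osmr (chromosome 15, 6813577 to 6874969, minus strand) encodes the oncostatin M receptor, which pairs with gp130. Its counts were 297, 391 and 324 in B6 Ctrl and 726, 1059 and 1537 in B6 KD, with a change of 1.74 ± 0.47 on the log2 scale (edgeR adjusted p = 0.0696). Of the 3 receptor genes, Osmr had the narrowest range within B6 KD, at 2.12 from the lowest to the highest library against 5.46 for S1pr3 and 7.01 for Cd44.

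Steap4 (chromosome 5, 7960457 to 7982213, plus strand) encodes a membrane protein that reduces iron and copper ions. Steap4 had normalized counts of 13.1, 77.0 and 14.8 in B6 Ctrl and 328, 633 and 148 in B6 KD. Its change was 3.45 ± 0.81 on the log2 scale (edgeR adjusted p = 0.0508). As for Lcn2, B6 KD 2 was the highest and B6 KD 3 the lowest KD library, and B6 Ctrl 2 stood above the other B6 Ctrl libraries. Without B6 Ctrl 2 the log2 fold change was 4.70 for Steap4 (edgeR adjusted p = 0.0431) and 7.34 for Lcn2.

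In D2 mice none of the 10 genes was called, and KD and Ctrl libraries overlapped for every one of them. The background was 0% called by edgeR, with 452 genes at an unadjusted p under 0.05, and DESeq2 called 1 gene (0.00631%), which was none of the 10. No reactive astrocyte gene had an unadjusted p under 0.05. Of all genes tested, 2.99% were higher in every D2 KD than in every D2 Ctrl library and 3.05% were lower. The fitted change was above 0 for 7 of the 10 genes, with a median log2 fold change of 0.20, beside 51.2% of all genes.

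**Figure D2:**
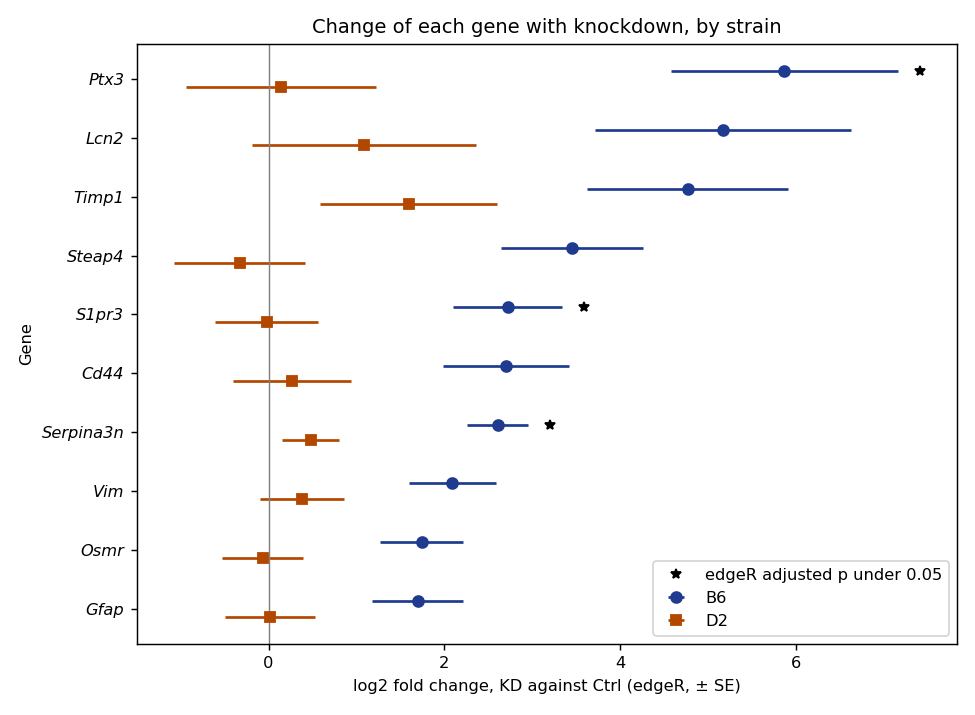
log2 fold change (edgeR, ± SE, 3 libraries against 3) of each gene for KD against Ctrl in B6 (circles) and D2 (squares). Stars mark Ptx3, S1pr3 and Serpina3n, the genes with an adjusted p under 0.05 in B6. The B6 values run from 1.70 for Gfap to 5.87 for Ptx3, and the D2 values from -0.33 for Steap4 to 1.59 for Timp1.

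Timp1 had the largest fitted change in D2 by the main test with all libraries. Its normalized counts were 26.3, 5.14 and 72.1 in D2 Ctrl, the second of these being 3 expected counts. In D2 KD they were 125 and 175, and 22.0 in the library labelled D2 KD 3. This gave a log2 fold change of 1.59 ± 1.01, and 2.06 without that library (edgeR adjusted p = 0.640). Lcn2 was at 32.9, 10.3 and 134 in D2 Ctrl and at 33.7 and 309 in D2 KD, with 39.2 in the library labelled D2 KD 3. One library, D2 KD 2, set its log2 fold change of 1.08 ± 1.27, which was -0.74 when D2 KD 2 was left out.

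Serpina3n had 4533, 3943 and 7724 normalized counts in D2 Ctrl and 8261 and 9971 in D2 KD, against 4332 in the library labelled D2 KD 3. KD 1 and KD 2 were above every D2 Ctrl library, and the library labelled D2 KD 3 lay within the D2 Ctrl range. The log2 fold change was 0.48 ± 0.33, and 0.74 without that library (edgeR adjusted p = 0.571). Vim had the same arrangement, with D2 Ctrl at 3622, 1573 and 5062, D2 KD at 5193 and 6171, and the library labelled D2 KD 3 at 1996. Its log2 fold change was 0.38 ± 0.48, and 0.72 without that library (edgeR adjusted p = 0.691).

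Gfap differed more among the D2 Ctrl mice than between treatments. Its normalized counts were 28536, 13082.5 and 66028 in D2 Ctrl, a range of 5.05 from lowest to highest. In D2 KD they were 46191 and 41516, and 21346 in the library labelled D2 KD 3, and the log2 fold change was 0.02 ± 0.51. The direction of this value turned when D2 Ctrl 1, D2 Ctrl 2, D2 KD 1 or D2 KD 2 was left out.

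The receptors had fitted changes near 0 in D2. Osmr was at 410.02, 226 and 827 normalized counts in D2 Ctrl and at 422 and 705 in D2 KD, with 274 in the library labelled D2 KD 3. S1pr3 was at 683, 406 and 1074 in D2 Ctrl and at 968 and 707 in D2 KD, with 468 in that library. Cd44 was at 549, 331 and 1143 in D2 Ctrl and at 979 and 1083 in D2 KD, with 375 in that library. For each receptor gene D2 Ctrl 3 was the highest of all 6 D2 libraries. The log2 fold changes were -0.07 ± 0.46 for Osmr, -0.02 ± 0.59 for S1pr3 and 0.26 ± 0.67 for Cd44, and without the library labelled D2 KD 3 they were 0.19, 0.19 and 0.59.

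Ptx3 was at 42.3, 12.0 and 97.6 normalized counts in D2 Ctrl and at 75.9 and 73.4 in D2 KD, with 22.0 in the library labelled D2 KD 3. Steap4 was at 57.4, 71.9 and 193 in D2 Ctrl and at 111 and 44.2 in D2 KD, with 104 in that library. Neither gene separated the D2 groups. The log2 fold change was 0.14 ± 1.08 for Ptx3 and -0.33 ± 0.74 for Steap4, and 0.50 and -0.50 without that library. With it left out, no reactive astrocyte gene was called in D2 (edgeR).

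The difference between the strains in the KD change was tested as the strain by treatment interaction, coded as the D2 change minus the B6 change. It was below 0 for all 10 genes, where 49.6% of all genes were above 0, with a median of -2.59 on the log2 scale, from -5.73 ± 1.65 for Ptx3 to -1.68 ± 0.72 for Gfap (SE). No gene was called by edgeR (0% of all genes, 937 of them at an unadjusted p under 0.05), and the adjusted p-values of the 10 genes were 0.821 to 0.839. The unadjusted p was under 0.05 for 8 of the 10, the exceptions being Lcn2 and Timp1. DESeq2 called 1 of the 10, Serpina3n (interaction -2.13 ± 0.47 by edgeR, DESeq2 adjusted p = 0.0147), where 0.0694% of genes were called. Without the library labelled D2 KD 3 the interaction of Serpina3n was -1.84 and no reactive astrocyte gene was called by edgeR. A difference between strains in these changes was therefore not established by the main test.

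Averaged over the strains, the log2 fold change was above 0 for all 10 genes, with a median of 1.51, beside 51.2% of all genes above 0. By edgeR none was called (0% of all genes, 3046 of them at an unadjusted p under 0.05), although all 10 had an unadjusted p under 0.05. The lowest adjusted p of the 10 was that of Serpina3n, at 0.0540 with a log2 fold change of 1.54 ± 0.24. DESeq2 called 7 of the 10, where 7.83% of genes were called. Without the library labelled D2 KD 3, edgeR called Serpina3n (1.66, adjusted p = 0.00772), Timp1 (3.40, adjusted p = 0.0303) and Vim (1.39, adjusted p = 0.0311), where 5.61% of all genes were called.

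Without knockdown, the strains were compared in Ctrl mice. All 10 genes had a higher fitted level in D2 Ctrl than in B6 Ctrl, with a median log2 difference of 1.23, beside 54% of all genes. Serpina3n was the only one called, where 14% of genes were called and 5.23% as higher. Its 3 D2 Ctrl libraries (3943 to 7724 normalized counts) all lay above its 3 B6 Ctrl libraries (1493 to 1963), as did 13.9% of genes. The ratio of means was 3.16, and the log2 difference was 1.67 ± 0.34 (edgeR adjusted p = 0.00568). It was called in each of the 12 fits with 1 library omitted, and it was the 1 gene of the 10 called by DESeq2, where 16.9% of genes were.

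Each of the other 9 overlapped between D2 Ctrl and B6 Ctrl. Their log2 differences ran from 0.54 ± 0.46 for Osmr to 2.31 ± 1.26 for Ptx3, with edgeR adjusted p-values of 0.220 to 0.690. The reads of each mouse had been aligned to the genome of its own strain, so a level set between strains also carries any difference between those references. Among the close copies of Serpina3n, Serpina3h was at 2.46 to 4.36 normalized counts in B6 Ctrl and 122 to 608 in D2 Ctrl, and was called as higher in D2 (log2 difference 6.53 ± 1.09, edgeR adjusted p = 0.00174). In D2 KD Serpina3h was at 1524 and 1468, with 199 in the library labelled D2 KD 3. It was not called between KD and Ctrl in D2. The part of this read assignment in the Serpina3n strain difference, in its KD change in D2 and in its interaction was not tested.

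In KD mice the order was the other way round. All 10 genes had a lower fitted level in D2 KD than in B6 KD, with a median log2 difference of -1.48, where 49.4% of all genes were above 0. None was called by edgeR, where 15% of genes were, and 5 of the 10 had an unadjusted p under 0.05. DESeq2 called 4, Ptx3, Steap4, S1pr3 and Osmr, with adjusted p-values of 0.0150, 0.0222, 0.0274 and 0.0318, where 19.2% of genes were called. For Osmr and Steap4 every B6 KD library was above every D2 KD library, as for 14.7% of genes. The edgeR log2 differences ran from -3.42 ± 1.10 for Ptx3 to -0.46 ± 0.33 for Serpina3n, and without the library labelled D2 KD 3 these were -3.02 and -0.17.

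Across the 4 groups, B6 Ctrl thus had the lowest mean and B6 KD the highest mean of every one of the 10 genes. The D2 groups lay between them, D2 Ctrl below D2 KD for 7 genes and above it for Osmr, Steap4 and S1pr3, and these neighbours overlapped for all 10. For Serpina3n the means were 1706 ± 238 in B6 Ctrl, 5399.99 ± 2034 in D2 Ctrl, 7521 ± 2891 in D2 KD and 10227 ± 2422 in B6 KD (SD, n = 3 each). For Gfap they were 18313 ± 2220.4, 35882 ± 27227, 36351 ± 13204 and 58333 ± 21730 in the same order.

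**Figure D3:**
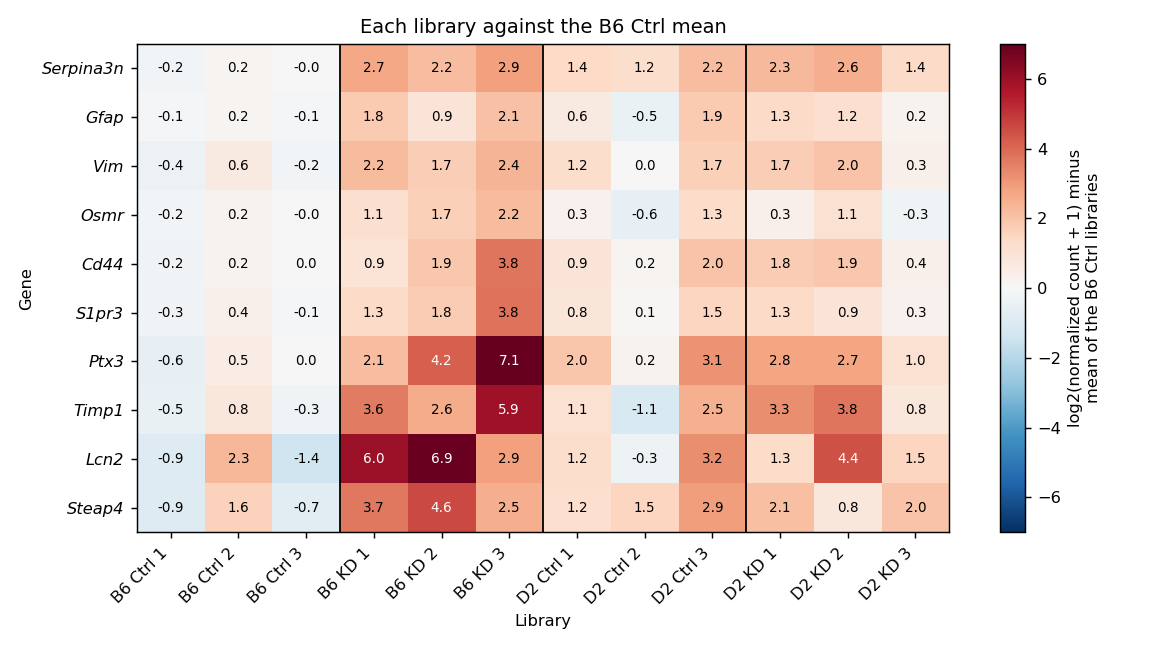
Difference of log2(normalized count + 1) from the mean of the 3 B6 Ctrl libraries, for each gene (rows) in each library (columns). B6 KD 3 is darkest for Ptx3 (7.1) and Timp1 (5.9), B6 KD 2 for Lcn2 (6.9) and Steap4 (4.6), and D2 Ctrl 2 and the library labelled D2 KD 3 are pale in most rows.

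Within each group the genes tended to be high or low in the same mice. B6 Ctrl 2 was the highest B6 Ctrl library for all 10 genes, as it was for 30.4% of all genes tested. D2 Ctrl 3 was the highest D2 Ctrl library for all 10 (41.4% of all genes), and D2 Ctrl 2 the lowest for 9, Steap4 being the exception (33.8%). The library labelled D2 KD 3 was the lowest D2 KD library for 8, all but Lcn2 and Steap4 (34.8%). B6 KD 3 was the highest B6 KD library for the same 8 genes (37.5%) and the lowest for Lcn2 and Steap4 (44.7%), for which B6 KD 2 was the highest (28.3%). The members of a group are single mice, and these counts are a description of the libraries.

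Other genes known from reactive astrocytes were examined as lists. Of 4 further genes raised in many kinds of reactive astrocyte (Hspb1, Cxcl10, Cp and Aspg), none was called in B6 and all 4 had a change above 0, with a median of 1.87. Of the A1-type list, named for genes seen after inflammatory stimulation, 4 of 11 tested genes rose in B6 (H2-T23, Gbp2, Iigp1 and Psmb8, the first a class I histocompatibility gene and the others known interferon targets), with a median of 1.47. Of the A2-type list, named for genes seen after ischemia, 2 of 10 rose: Tgm1, a transglutaminase, by 4.503 ± 0.951 (edgeR adjusted p = 0.0420), and B3gnt5, a glycosyltransferase, by 1.74 ± 0.40 (edgeR adjusted p = 0.0478), with a median of 1.43. Of all genes tested, 1.76% were called as higher in this B6 comparison. In D2 no gene of these lists was called, and the medians were 0.44, 0.41 and 0.25. Between the KD groups, Clcf1, B3gnt5, Ptgs2 and S100a10 of the A2-type list were called as lower in D2. Of all 15853 genes tested, 15% were called there, 1434 of them as lower. This compares the strains and not the KD changes. Mean normalized counts in B6 Ctrl and D2 Ctrl were 54.1 and 9.20 for Clcf1 and 27.8 and 38.6 for B3gnt5. They were 667 and 455 for Ptgs2 and 412 and 277 for S100a10. None of the list was called between the Ctrl groups.

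Osmr signals through gp130, and of 14 tested genes of the gp130 and JAK-STAT3 pathway none was called in either strain. The median log2 fold change was 0.50 in B6 and -0.01 in D2. In B6 the change was above 0 for 12 of the 14, beside 50.4% of all genes, and 7 had an unadjusted p under 0.05 by edgeR. Socs3, the feedback inhibitor that STAT3 induces, was at 58 to 92 normalized counts in B6 Ctrl and at 110, 306 and 1598 in B6 KD (log2 fold change 3.22 ± 0.83, edgeR adjusted p = 0.0614). Lif, a cytokine of the family that was singled out after its values were seen, was at 2145 in B6 KD 3 and at 17.1 to 82.1 in the other 11 libraries. B6 KD 3 was thus the highest library for both, as for each reactive astrocyte gene except Lcn2 and Steap4. Osm, the ligand of Osmr, was at 0.956 to 22.3 normalized counts. Socs3 and Osm were not called and were picked from the list with its values known.

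Close relatives of the 10 genes were also examined, in a list that includes genes tied to them by function only, such as Has2 and Has3. Of 27 tested genes of this list none was called in KD against Ctrl in either strain, with medians of 0.47 in B6 and 0.11 in D2. The sphingosine 1-phosphate receptor gene S1pr1 had a change of -0.22 ± 0.21 in B6 where S1pr3 had 2.72, and Timp2 had 0.16 ± 0.22 where Timp1 had 4.77. Has2, which encodes an enzyme that makes the hyaluronan bound by Cd44, had 2.72 ± 0.77 (edgeR adjusted p = 0.0786). Serpina3i, a close copy of Serpina3n, had 3.71 ± 0.94 (edgeR adjusted p = 0.0594) from 1.15 to 4.10 normalized counts in B6 Ctrl. S1pr1, Timp2, Has2 and Serpina3i were picked from the list after its values were seen.

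Markers that astrocytes express at rest were measured for comparison. Of 12 such genes, Aqp4, the water channel of astrocyte endfeet, was the 1 called in B6, with a rise of 1.202 ± 0.194 (edgeR adjusted p = 0.0326), from 4548 to 5748 normalized counts in B6 Ctrl to 10677 to 12428 in B6 KD. Of all genes tested, 1.76% were called as higher in B6. The change was above 0 in B6 for 5 of the 12, with a median of -0.11 in B6 and -0.19 in D2. All 12 markers were detected in every library, and their summed normalized counts were 226673 to 251467 in B6 Ctrl, 167676 to 249534 in B6 KD, 245518 to 268738 in D2 Ctrl and 191659 to 263365 in D2 KD. The sum was lowest in B6 KD 3, where 8 of the 10 reactive astrocyte genes were highest. Slc1a2 alone held 66377 of that sum, so the sum mainly follows the most abundant markers. The markers did not move together in B6 KD 3. Named after their values were seen, Aqp4, S100b, Sox9 and Fgfr3 were highest there among the B6 KD libraries. Aldh1l1 lay between the other B6 KD libraries, and the remaining markers, Slc1a2 among them, were lowest there.

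**Figure D4:**
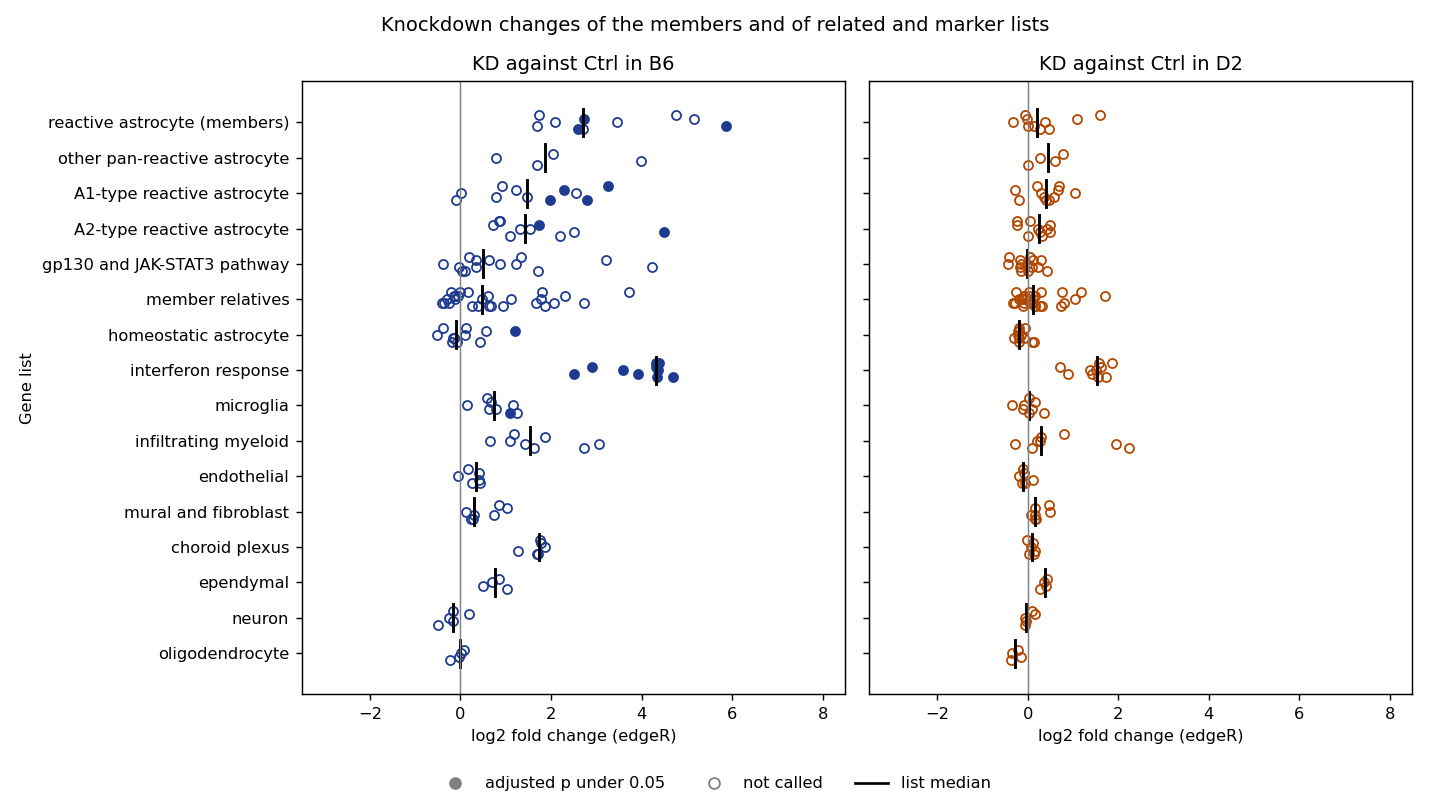
log2 fold change (edgeR) of KD against Ctrl in B6 (left) and D2 (right), with 1 point for each tested gene of each list and a line at the list median. Filled points have an adjusted p under 0.05. The medians in B6 are 2.71 for the reactive astrocyte genes, 4.33 for interferon response genes and -0.11 for homeostatic astrocyte markers, and no point is filled in D2.

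Genes of the interferon response were also higher in B6 KD than in B6 Ctrl. All 10 on the list rose, among them Irf7 by 4.69 ± 0.71 and Ifit1 by 4.34 ± 0.66 (edgeR adjusted p = 0.0326 each). Of all genes tested, 1.76% were called as higher in B6. The summed normalized counts of the list were 2068 to 2510 in B6 Ctrl and 12156 to 37740.3 in B6 KD, lowest of the KD libraries in B6 KD 3. B6 KD 3 was, however, the highest B6 KD library for 8 of the 10 reactive astrocyte genes. In D2 the sums were 2373, 2385 and 6130 in Ctrl and 10533 and 13904 in KD, with 3001 in the library labelled D2 KD 3. No gene of the list was called in D2, but all 10 had a change above 0, beside 51.2% of all genes. The D2 median was 1.53, and 7 had an unadjusted p under 0.05 by edgeR. For the reactive astrocyte genes the D2 median was 0.20, and none had an unadjusted p under 0.05. D2 Ctrl 3, the highest D2 Ctrl library for all 10 reactive astrocyte genes, was also the highest D2 Ctrl library for the interferon sum.

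Markers of other cell types also moved in part with the groups. The 8 microglial markers summed to 11444 to 13165 normalized counts in B6 Ctrl and 14492 to 23218 in B6 KD, with 1 of 8 called (Itgam), a median of 0.74 in B6 and of 0.02 in D2. The 8 infiltrating myeloid markers summed to 534 to 1816 and 1444 to 3378, with none called and medians of 1.53 and 0.29. In B6 all 8 markers of each of these 2 lists had a change above 0, beside 50.4% of all genes. An unadjusted p under 0.05 by edgeR was found for 7 of the microglial and 4 of the myeloid markers. In B6 Ctrl the highest myeloid sum and the highest Lcn2 value were both in B6 Ctrl 2. Lyz2, named after its values were seen, made up 1361 of the 1816 there. Which cells made these RNAs was not measured, so the sum does not measure infiltration. In D2 the microglial sums were 11044 to 16930 in Ctrl and 11167 to 16978 in KD, and the myeloid sums 533 to 1132 and 637 to 1241. Of these markers, Ly6c2 was at 0 in D2 Ctrl 2 and no other was at 0 in any library.

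The 6 choroid plexus markers divided the libraries regardless of group, with sums of 1775 to 5808 normalized counts in B6 Ctrl 1, B6 Ctrl 3, B6 KD 1, D2 Ctrl 1 and D2 KD 2 and of 81679 to 154468 in the other 7 libraries. B6 Ctrl 2 was the only high library of its group. With the choroid plexus score as a covariate, the B6 log2 fold changes were 2.64 for Serpina3n, 1.67 for Gfap, 2.11 for Vim, 5.23 for Lcn2, 1.72 for Osmr, 2.44 for Cd44, 5.25 for Ptx3, 3.21 for Steap4, 2.38 for S1pr3 and 4.63 for Timp1, beside 2.61, 1.70, 2.09, 5.16, 1.74, 2.70, 5.87, 3.45, 2.72 and 4.77 without it. In that fit none of the 10 was called (edgeR adjusted p of 0.0581 to 0.149), nor was any of the 15853 genes. None of the choroid plexus, endothelial, mural and fibroblast, ependymal, neuronal and oligodendrocyte markers was called in KD against Ctrl. Their medians in B6 were 1.73, 0.33, 0.30, 0.77, -0.17 and -0.01, and in D2 0.11, -0.09, 0.17, 0.37, -0.03 and -0.28. All of these markers were above 0 in every library. The part of the interferon, microglial, myeloid and choroid plexus signals in the results for the 10 genes was not tested.

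The genes whose pattern over the 12 libraries was most like each of the 10 were listed by Pearson's r of log2(CPM + 1), as a description of libraries that share groups, depth and tissue composition. They were Plod2 (r = 0.94) for Serpina3n, Prdx1 (0.96) for Gfap and S100a6 (0.97) for Vim. For Ptx3 the nearest was Socs3 (0.98), for Cd44 Serpinf2 (0.99), for S1pr3 Cnn3 (0.99) and for Timp1 Rgs4 (0.98). For Osmr it was Tgm1 (0.96), the transglutaminase of the A2-type list. For Lcn2 it was Ptprc (0.98), which encodes the leukocyte antigen CD45, followed by Cst7 and Cd48 (0.98 each), and for Steap4 it was Elf1 (0.96). Anxa5 was among the 3 nearest genes of both Serpina3n (0.94) and Vim (0.97), and Serpinf2 among those of both Cd44 (0.99) and Ptx3 (0.98).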

How the data were processed

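Hippocampal mRNA libraries of 12 mice, 3 per strain and treatment, were grouped by their strain and treatment labels. Replicates were numbered in order of deposit, so numbers pair nothing. Reads were trimmed by the authors and aligned to the genome of each mouse's strain, with RSEM 1.2.12 and Bowtie2 2.2.0 per the submitters' processing notes, which name GRCm38/mm10. The deposited expected counts come from RSEM and are not normalized. The second deposited table holds a signal per gene, the authors' DESeq2 normalized count, which equalled the expected count without decimals divided by 1 size factor per library (0.584 to 1.35), giving whole reads for 100% of 266784 values within 0.001. Because of shared barcodes the libraries were run again, and the runs were merged for most of them, which ones not being given in the sources used here. By Ensembl identifier, 27 symbols that a spreadsheet had changed to dates were restored.

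Expected counts were rounded and filtered with filterByExpr over the 4 groups, leaving 15853 of 22236 genes. A mean per group was fitted to all 12 libraries with edgeR 4.0.16 (R 4.3.3; TMM, glmQLFit with robust estimation and its older default method, glmQLFTest). Benjamini-Hochberg adjustment ran over all genes tested, and adjusted p under 0.05 was called. Standard errors were derived from the F statistic (the size of the log2 change over its root) and are approximate. The p-values rest on a spread estimated for each gene over all 4 groups, of 3 mice each, and moderated across genes. Those of the B6 comparison therefore also draw on the spread between D2 mice. Normalized counts are printed per library, and means with SD. Alternatives used DESeq2 1.42.0, limma 3.58.1 (voom) and other settings, and left out each library in turn, which leaves 2 in its group. Library totals were 18.2 M to 39.4 M, and for genes of few counts (such as Timp1 or Lcn2 in Ctrl mice) counting error adds to the spread.

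The 10 genes were named by rule with all values, as were the target, the 3 genes of mean CPM of at least 1 most like each of them, and up to 4 called genes of each list by smallest p. Genes named outside this rule are marked as picked with their values known or after these were seen, or are examples naming a list's content. Ly6c2 is named for its count of 0. The members and lists were chosen with earlier results of these data known. Gene coordinates are from GENCODE M21 (GRCm38), and start-site sequences from RefSeq GRCm38.p6. Small RNA libraries were not used here.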

Additional observations from a re-analysis of the deposited data

How the results depend on the processing

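The number of reactive astrocyte genes called was the result that depended most on the processing, and the cause was not tested. For KD against Ctrl in B6 (3 called), DESeq2 called 10, the newer quasi-likelihood method 6, a fit with no robust estimation 5, limma-voom and a fit with no filter on low counts 1 each, and fits with the total count or the choroid plexus score as a covariate 0 each. Leaving out 1 library at a time gave 0 to 8, with 8 without D2 Ctrl 3, 5 without the library labelled D2 KD 3, 1 without D2 Ctrl 2 or D2 KD 1, and 0 without B6 Ctrl 1, B6 Ctrl 3, B6 KD 1, B6 KD 2 or D2 Ctrl 1. Over all genes, 629 were called in the fit with 8, 729 in the fit with 5, 113 and 124 in those with 1, and 0 in each of the 5 fits with 0. For KD averaged over strains (0 called), DESeq2 called 7, the newer quasi-likelihood method 1, and fits without 1 library 0 to 3. For the interaction (0 called), DESeq2 called 1 and fits without 1 library 0 to 0. For D2 against B6 in Ctrl (1 called), fits without 1 library called 1 to 2, and in KD (0 called) DESeq2 called 4, the newer method and the choroid plexus score 1 each, and fits without 1 library 0 to 2. For KD in D2 it was 0 in every fit. Over all genes, the B6 comparison had 418 calls in the main setting, 1688 by DESeq2, 329 by limma-voom, 612 by the newer method, 289 with only the groups compared, 0 with the total count and 0 with the choroid plexus score as a covariate. The averaged comparison had 0, 1241 by DESeq2 and 15 by the newer method, the interaction 0 and 11 by DESeq2, and D2 against B6 in KD 2373 and 1558 with only the groups compared.

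Directions turned for values that were not called. In D2, the total count as a covariate gave KD changes of -0.078 for Cd44, -0.24 for Gfap, -0.42 for Ptx3 and 0.24 for Steap4, and the choroid plexus score gave 0.052 for S1pr3. Without 1 library the D2 changes ran from -0.39 to 0.81 for Gfap, -0.069 to 0.89 for Cd44, -0.74 to 2.48 for Lcn2, -0.50 to 0.55 for Osmr, -0.30 to 0.99 for Ptx3, -0.31 to 0.39 for S1pr3 and -0.65 to 0.43 for Steap4. For D2 against B6 in Ctrl they ran from -0.15 to 3.44 for Lcn2 and -0.078 to 0.88 for Osmr. A fit with only the groups compared could not be made for the averaged change and the interaction. No paired analysis was possible because the labels carry no replicate numbers and tie no mice together across groups. Depth limits the values of genes with few counts, such as Ptx3 in B6 Ctrl, at 8, 13 and 12 expected counts.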
